A study of Mus musculus with 18 samples.

Results

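The expression of 10 genes of transforming growth factor-β (TGFβ) signalling and activation was followed in mouse dendritic cells (DCs) that were left nonconfined, were confined or received lipopolysaccharide (LPS). The genes were chosen by name, with earlier results of these data known, so that their counts beside those of all genes are a description. The genes were found by their symbol, each once, among the 62197 genes of the deposited table. They encode the ligand TGFβ1 (*Tgfb1*), the integrin chain β8 (*Itgb8*), both receptor chains (*Tgfbr1* and *Tgfbr2*), the signal transducers SMAD2 and SMAD3 (*Smad2* and *Smad3*), the inhibitor SMAD7 (*Smad7*), the corepressors SnoN (*Skil*) and TGIF1 (*Tgif1*), and the matrix protein TGFBI (*Tgfbi*), a commonly used target. TGFβ1 is secreted in a latent complex that holds the cytokine inactive, and integrin αvβ8 is one of the proteins that release it. The active ligand joins the type II and type I receptors, and the type I receptor phosphorylates SMAD2 and SMAD3, which enter the nucleus with SMAD4. In DCs this pathway is known for the induction of regulatory T cells, in which αvβ8 on the DC takes part, and for holding DC maturation in check.

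The libraries were made from bone marrow-derived DCs, grown for 10 days with a supernatant containing granulocyte-macrophage colony-stimulating factor, from mice labelled as wild type (cPLA_2_ WT) or knockout (cPLA_2_ KO) for cytosolic phospholipase A2, a lipid enzyme that responds to stretching of the nuclear envelope. In the knockout, floxed *Pla2g4a* alleles were deleted by a Cre recombinase under the *Itgax* (CD11c) promoter, so that cells of the culture without CD11c keep the gene. According to the Methods, most of the recovered cells carry CD11c. Nonconfined cells were collected directly at the end of culture, and confined cells 4 h after they had been brought to a 3 µm height, without LPS according to their labels for treatment. LPS cells received 100 ng ml-1 for 30 min, were washed and were left until the next day. Between the treatments, stimulus, time and handling thus differed together and cannot be told apart. The 6 conditions, nonconfined, confined and LPS for each genotype, had 3 libraries each, which the study describes as biological replicates, while the labels do not say whether these came from separate mice or cultures. The p-values below measure the spread between these libraries. The protocol text also mentions LPS for all 18 libraries, whereas titles and treatment labels restrict it to the LPS groups; titles were used to assign libraries.

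Values are normalized counts, gene counts that the authors divided by a DESeq2 size factor per library, with no scaling for gene length. The recovered depth was between 33027230 and 61300021 reads on genes per library, with a median of 40950398, and it was lowest in confined cPLA_2_ KO libraries and highest in LPS libraries labelled cPLA_2_ WT. Changes were computed as differences of log2(normalized count + 1) in a limma fit over the 18 libraries, with standard errors (SEs) from that fit and p-values adjusted over the 17875 genes that reached 10 normalized counts in 3 libraries or more. A gene was called at an adjusted p under 0.05. Each of the 10 genes passed this filter, but *Itgb8* passed it only through its confined cPLA_2_ WT and LPS libraries, so that it had to differ between conditions and is set apart in the counts below.

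The genotype labels were first checked against *Pla2g4a* itself (GSMG0002495, GRCm39 chromosome 1 from 149705372 to 149837041, on the minus strand). Its normalized counts were 697, 686 and 770.4 in the nonconfined cPLA_2_ WT libraries and 548, 542 and 533 in the nonconfined cPLA_2_ KO libraries. In confined cells they were 1369, 1430.3 and 1321 in cPLA_2_ WT and 923, 871 and 919.5 in cPLA_2_ KO. The knockout libraries were thus lower in both treatments, without overlap (log2 fold change -0.41, SE 0.059, adjusted p = 0.00019 in nonconfined and log2 fold change -0.60, SE 0.059, adjusted p = 3.81e-08 in confined cells). Many reads of the gene remained in each knockout library, and their source was not tested. In LPS cells the values were 1005, 969 and 967 in the libraries labelled cPLA_2_ WT and 1065, 1032 and 1028 in those labelled cPLA_2_ KO, which were not lower. Counts of the Y-linked gene *Ddx3y* were 3.05, 0 and 1.97 in nonconfined and 0, 1.72 and 2.37 in confined cPLA_2_ WT libraries, against 949, 981 and 874 and 1036, 920.2 and 948 in cPLA_2_ KO libraries. In LPS libraries they were 1271, 0 and 662 under the label cPLA_2_ WT and 2.12, 1476 and 783 under the label cPLA_2_ KO, so that both labels hold libraries with and without Y-linked reads. Between libraries of different LPS labels the squared count differences averaged as little as 5.09 times the sampling variance, in the pair of the second library labelled cPLA_2_ WT and the first labelled cPLA_2_ KO. Between the third library of either label the ratio was 6.13, and within an LPS label the smallest was 9.70. The genotype labels of the LPS libraries are therefore not used for any direction, and LPS libraries of both labels are pooled. Counts of *Lrrc32*, a gene of the pathway list below, were 4456, 8043 and 5963 in the LPS libraries labelled cPLA_2_ WT. They were 8048, 4304 and 6159 in those labelled cPLA_2_ KO, so that similar values recur under both labels. The LPS p-values treat the 6 as separate libraries, and whether any of them share a source was not tested. If some do, these p-values are too small. With the 3 LPS libraries of either label alone against the nonconfined ones of that label, each of the 26 LPS values examined kept its direction and call. As libraries of different labels resemble each other, the labels are not separate evidence for these values. Counts of *Xist*, the RNA of the inactive X chromosome, were 27953, 33681 and 30681 in nonconfined and 22734, 33482 and 29759 in confined cPLA_2_ WT libraries, against 12153, 19081 and 14328 and 16979.6, 24835 and 20600 in cPLA_2_ KO libraries. The cPLA_2_ KO libraries thus held both Y-linked reads and *Xist*. In nonconfined and confined cells, genotype and these differences in sex-linked reads cannot be told apart.

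Genes that define DCs, such as *Itgax* with a mean of 6281 normalized counts in nonconfined cPLA_2_ WT libraries, were present in each condition. The summed normalized counts of a list of 10 DC genes, led by *Cd74*, were 520071, 494351 and 499078 in nonconfined cPLA_2_ WT, 626940, 588109 and 616898 in nonconfined cPLA_2_ KO, 492377, 460712 and 472533 in confined cPLA_2_ WT and 435904, 420831 and 436303 in confined cPLA_2_ KO libraries. Of these 10 genes 3 rose and 5 fell with confinement in cPLA_2_ WT, and 1 rose and 8 fell in cPLA_2_ KO cells. Of all genes tested, 28.2% rose and 28.4% fell in cPLA_2_ WT, and 22.8% rose and 23.4% fell in cPLA_2_ KO cells, against which this count and those of the cell types below are to be read. According to the Methods, such cultures yield other myeloid cells as well, and the cells that adhered only weakly were taken as DCs. Genes of other myeloid cells were nevertheless present and moved with the conditions. For the 10 neutrophil genes, led by *S100a9*, the sums were 240278, 245293 and 243559 in nonconfined and 154432, 147176 and 144958 in confined cPLA_2_ WT libraries, against 370847, 333355 and 358716 and 333987, 346911 and 330924 in cPLA_2_ KO libraries. All 10 neutrophil genes fell with confinement in cPLA_2_ WT and 4 of the 10 fell in cPLA_2_ KO cells. For the 8 eosinophil genes, led by *Prg2*, the sums were 31069.9, 30884 and 30831 in nonconfined and 8631, 8192 and 8095 in confined cPLA_2_ WT libraries, against 75496, 70367 and 72187 and 20005, 19550.2 and 20591 in cPLA_2_ KO libraries. Of the 8 genes 6 fell and 1 rose in cPLA_2_ WT, while 7 of the 8 fell in cPLA_2_ KO cells. For the 8 mast cell and basophil genes, led by *Cpa3*, they were 6915, 7136 and 7004 and 3573, 3435 and 3493 in cPLA_2_ WT, against 10559.6, 10222 and 10085 and 5562, 5428 and 5633 in cPLA_2_ KO libraries. Of the 7 that were tested 6 fell and 1 rose in either genotype, and *Mcpt4* was at or near 0 in each group. For the 6 megakaryocyte and platelet genes, led by *Ppbp*, the sums were 2101, 1921 and 1970.3 in nonconfined and 6529, 6135 and 6357 in confined cPLA_2_ WT libraries, against 2513, 2412 and 2505 and 7920.1, 7725 and 8201 in cPLA_2_ KO libraries. Of the 5 tested 2 rose and 2 fell in cPLA_2_ WT, while 3 rose and 1 fell in cPLA_2_ KO cells. Of these sums *Ppbp* alone made up a mean of 106 in nonconfined and 4223 in confined cPLA_2_ WT libraries. For the T cell genes, led by *Cd3g*, they were 2492, 2515 and 2447 and 802, 827 and 695 in cPLA_2_ WT, against 3179.6, 2869.9 and 3104 and 1024, 1240.2 and 1132 in cPLA_2_ KO libraries. Of 5 T cell genes tested 4 fell in cPLA_2_ WT and 3 in cPLA_2_ KO cells. Of 9 macrophage genes tested 1 rose and 4 fell in cPLA_2_ WT, and 1 rose and 5 fell in cPLA_2_ KO cells, and of 4 B cell genes 2 fell in cPLA_2_ WT and 1 in cPLA_2_ KO cells. In the LPS libraries the sums ranged from 277933 to 313086 for the neutrophil, from 25538 to 43931 for the eosinophil, from 4059 to 6724 for the megakaryocyte and platelet, and from 431 to 525 for the T cell genes. All 10 DC genes were called higher with LPS, but with the same total for each library 4 were called higher and 4 lower. With LPS 4 neutrophil genes rose and 5 fell, while under that scaling all 10 fell. Of the 8 eosinophil genes 7 fell and of the 9 macrophage genes 3 rose and 6 fell, against 37.2% of all genes that rose and 34.3% that fell with LPS. In bulk libraries, fewer cells of a type and less RNA per cell cannot be told apart, and the part of these cells in the results below was not tested. Of the 8 stromal genes, *Dcn*, *Lum* and *Cxcl12* were near 0 and were not tested. Of the other 5, 2 rose and 1 fell in cPLA_2_ WT and 1 rose and 1 fell in cPLA_2_ KO cells. *Col1a1*, which is also in the list of target genes below, had a mean of 109 normalized counts in nonconfined cPLA_2_ WT libraries.

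**Figure D1:**
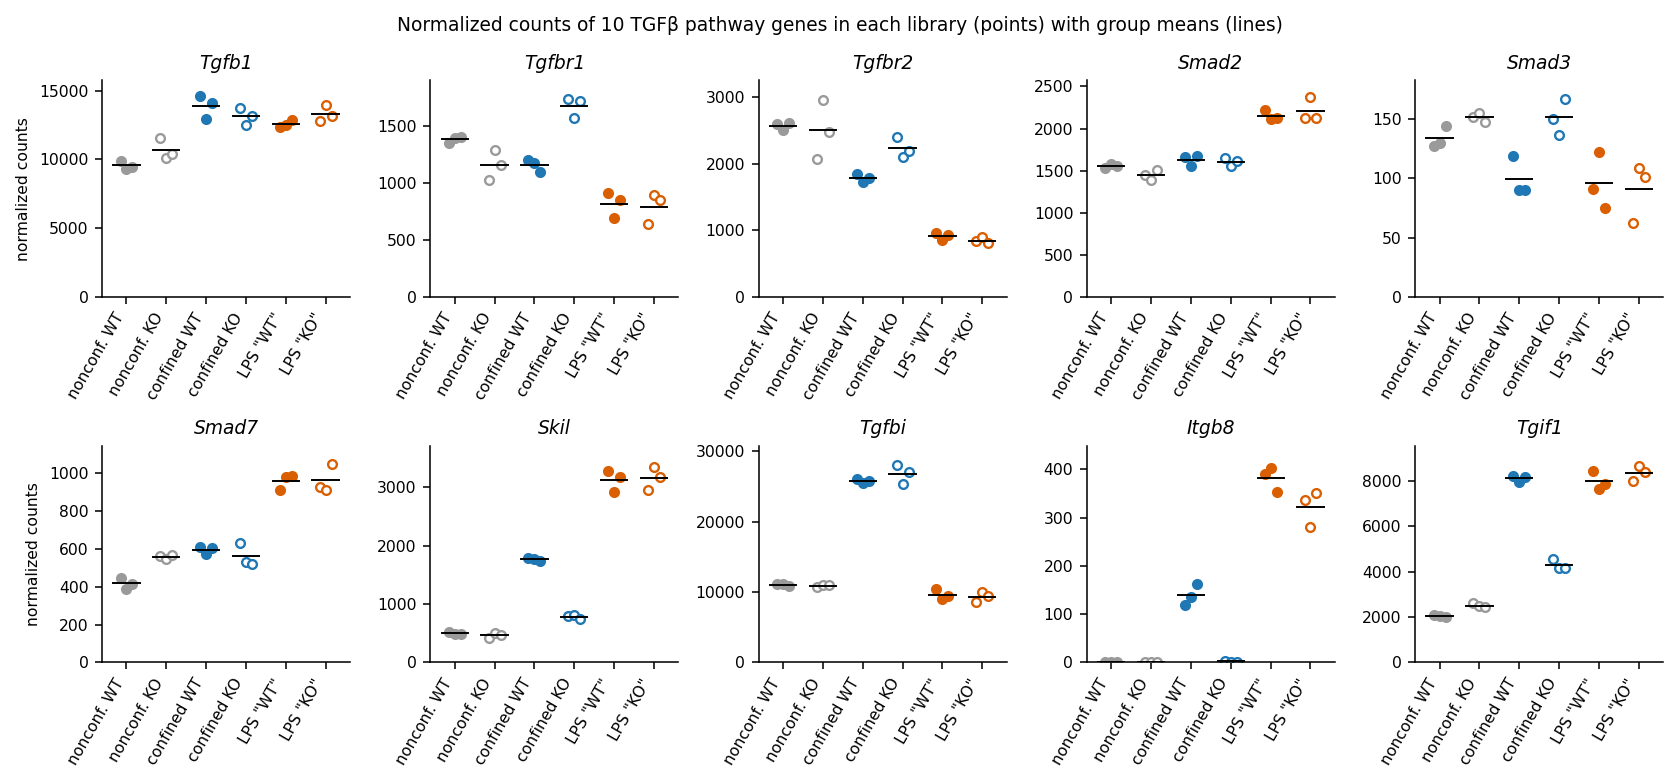
Normalized counts (vertical axes, from 0) of the 10 genes in each of the 18 libraries (points, filled for libraries labelled WT and open for those labelled KO) with the mean of the 3 libraries of a condition (lines). *Itgb8* is near 0 in 9 libraries, those of nonconfined and of confined cPLA_2_ KO cells, *Skil* and *Tgif1* are higher in confined cPLA_2_ WT than in confined cPLA_2_ KO cells, and *Tgfbi* is high in both confined groups and in no LPS library.

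With confinement of cPLA_2_ WT cells, those of the 9 genes other than *Itgb8* that changed most were *Tgif1*, *Skil* and *Tgfbi*, which rose, whereas *Tgfbr2* fell. Of the 9 genes, 5 rose and 2 fell in cPLA_2_ WT cells. Among all genes tested, 28.2% were called higher and 28.4% lower. With confinement of cPLA_2_ KO cells, 6 of the 9 rose and none fell by the limma test, *Itgb8* was called higher on a total of 6 reads, and 22.8% of all genes were called higher and 23.4% lower. The change with confinement differed between the genotypes for 6 of the 9. It lay higher in cPLA_2_ KO for *Tgfbr1* and *Tgfbr2*, and lower for *Tgfb1*, *Smad7*, *Skil* and *Tgif1*, against 10.2% and 15.6% of all genes. With LPS, each of the 9 was called, 5 higher and 4 lower, against 37.2% and 34.3% of all genes. With shares of this size a call alone says little about a gene, so values and sizes are given for each. Over the 9 genes the median log2 fold change with confinement reached 0.51 for cPLA_2_ WT and 0.30 for cPLA_2_ KO cells, that with LPS 0.35, and over all genes it was -0.01, 0.01 and 0.02.

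These shares depend on the scaling of the libraries. With the same total for each library in place of the authors' size factors, the median of all genes moved by -0.22 (log2) for confinement in cPLA_2_ WT, by -0.03 for confinement in cPLA_2_ KO, by 0.19 for the difference between these changes and by -0.48 for LPS. The share of higher genes among those called then went from 49.8% to 32.7% for confinement in cPLA_2_ WT, from 39.5% to 70.7% for the difference, and from 52% to 26.4% for LPS. For cPLA_2_ KO against cPLA_2_ WT cells it went from 53.8% to 42% in nonconfined and from 47.7% to 69.7% in confined cells, and for confined against LPS cells from 45.2% to 75% in cPLA_2_ WT and from 48.2% to 77.2% in cPLA_2_ KO. Of the 9 genes other than *Itgb8*, the same total called 5 higher and 4 lower for confinement in cPLA_2_ WT, 5 higher and 0 lower in cPLA_2_ KO, 4 higher and 3 lower for the difference and 3 higher and 5 lower for LPS. Their median then was 0.29 for confinement in cPLA_2_ WT and 0.26 in cPLA_2_ KO, and it turned to -0.14 for LPS. With scaling by the trimmed mean of M-values (TMM) the share moved by less than 10 points in each comparison. Where the same total moved a called value by over 1.5 times, the log2 value it gave stands beside it below.

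*Tgfb1*, the ligand gene (GSMG0047975, chromosome 7 from 25386425 to 25404501, on the plus strand, with 7 exons in the canonical GENCODE transcript), was abundant in each condition. Nonconfined cPLA_2_ WT libraries had 9925, 9339 and 9454 normalized counts and confined cPLA_2_ WT libraries 14601, 12909 and 14092. In cPLA_2_ KO cells the values were 11580.5, 10122 and 10398 in nonconfined and 13744, 12526 and 13178 in confined libraries. Confined libraries were higher than nonconfined ones in both genotypes, without overlap. The rise was 1.45-fold in cPLA_2_ WT (log2 fold change 0.53, SE 0.055, adjusted p = 3.13e-08; 0.31 with the same total) and 1.23-fold in cPLA_2_ KO (log2 fold change 0.30, SE 0.055, adjusted p = 0.000122). The difference between these changes was small (log2 -0.23, SE 0.077, adjusted p = 0.0289). It was -0.045 (adjusted p = 0.627) with the same total for each library, and the call was also lost without a filter (adjusted p = 0.0541) and when any of 7 of the 12 libraries was left out, namely nonconfined cPLA_2_ WT 2 or 3, nonconfined cPLA_2_ KO 1, confined cPLA_2_ WT 1 or 3, or confined cPLA_2_ KO 2 or 3, with adjusted p-values up to 0.0903. LPS libraries had between 12325 and 13927 with a median of 12837 normalized counts, higher than the nonconfined libraries (log2 fold change 0.35, SE 0.039, adjusted p = 3.9e-08), but with the same total the direction turned to -0.14 (adjusted p = 0.000555). In order of mean level, confined cPLA_2_ WT, confined cPLA_2_ KO and LPS libraries came first and overlapped each other, and nonconfined cPLA_2_ KO and then nonconfined cPLA_2_ WT libraries were lowest.

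*Itgb8* (GSMG0012913, chromosome 12 from 119123732 to 119202536, on the minus strand), whose product pairs with the αv chain to bind the latent complex, went from almost no reads to a moderate level. It had 1.52, 0 and 0 normalized counts in nonconfined cPLA_2_ WT libraries and 1.57, 0 and 0 in nonconfined cPLA_2_ KO libraries, which is 2 reads in each group. Confined cPLA_2_ WT libraries had 119, 135 and 163 and confined cPLA_2_ KO libraries 3.24, 1.07 and 1.82. All confined cPLA_2_ WT libraries were thus far above every confined cPLA_2_ KO library, which were at the level of 1 to 3 normalized counts. From the 419 and 2 reads, the level in confined cPLA_2_ WT cells was 241 times that in nonconfined cPLA_2_ WT cells, with an exact 95% counting interval of 66.3 to 1996. From the 6 and 2 reads in cPLA_2_ KO cells the ratio was 3.42, with an interval of 0.612 to 34.7, so that a change with confinement was not detectable at this depth in cPLA_2_ KO cells. The limma call in cPLA_2_ KO (log2 fold change 1.09, SE 0.42, adjusted p = 0.0384) was lost with a pseudocount of 5 (adjusted p = 0.203), with edgeR (0.182), with DESeq2 (0.217), without a filter (0.0866), with the compared conditions alone (0.274) and without the LPS libraries (0.178), and without nonconfined cPLA_2_ KO 2 or 3 or confined cPLA_2_ KO 1 or 3, with adjusted p-values up to 0.153. Between the confined groups the ratio of cPLA_2_ WT to cPLA_2_ KO was 67.9, with an interval of 30.9 to 186. These intervals cover counting error only. The fitted size of the difference between the changes depends on the pseudocount, and no p-value is given for it, as the filter let the gene pass through its high groups. After LPS it had between 280.3 and 404 with a median of 353 normalized counts, above each confined cPLA_2_ WT library (log2 fold change -1.34, SE 0.36, adjusted p = 0.0037 for confined cPLA_2_ WT against LPS).

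In cPLA_2_ WT cells both receptor genes were called lower with confinement, *Tgfbr1* at the threshold, and in cPLA_2_ KO cells *Tgfbr1* rose. *Tgfbr2* (GSMG0059975, chromosome 9 from 115913365 to 116004515, on the minus strand), the chain that binds the ligand first, had 2606, 2502 and 2612 normalized counts in nonconfined and 1844, 1733 and 1781 in confined cPLA_2_ WT libraries. It had 2079, 2963 and 2472 in nonconfined and 2402, 2108 and 2199 in confined cPLA_2_ KO libraries. It fell in cPLA_2_ WT cells without overlap (log2 fold change -0.53, SE 0.088, adjusted p = 2.78e-05), whereas the cPLA_2_ KO groups overlapped, as the nonconfined cPLA_2_ KO libraries spread widely (log2 fold change -0.15, SE 0.088, adjusted p = 0.175). Without the first nonconfined cPLA_2_ KO library the change in cPLA_2_ KO was -0.28 (adjusted p = 0.00704), and without the second it was -0.022 (adjusted p = 0.846). The difference between the genotypes in this change was 0.38 (SE 0.12, adjusted p = 0.03; 0.57 with the same total), and the call was lost with edgeR (adjusted p = 0.0554) and without a filter (0.053), and when nonconfined cPLA_2_ WT 1 or 3, nonconfined cPLA_2_ KO 1 or 3, confined cPLA_2_ WT 2 or 3, or confined cPLA_2_ KO 1 was left out, with adjusted p-values up to 0.0924. In confined cells *Tgfbr2* was higher in cPLA_2_ KO than in cPLA_2_ WT libraries, without overlap (log2 fold change 0.32, SE 0.088, adjusted p = 0.00588). LPS libraries had between 806 and 959 with a median of 876 normalized counts, below each nonconfined and confined library and 0.349 times the nonconfined level (log2 fold change -1.52, SE 0.062, adjusted p = 2.27e-15).

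*Tgfbr1* (GSMG0036605, chromosome 4 from 47353222 to 47414927, on the plus strand), which encodes the type I receptor kinase, had 1352, 1401 and 1408 normalized counts in nonconfined and 1201, 1176 and 1099 in confined cPLA_2_ WT libraries. In cPLA_2_ KO cells it had 1030.3, 1295 and 1162 in nonconfined and 1742, 1574 and 1723 in confined libraries. Confined cPLA_2_ KO libraries were the highest of all 18 and did not overlap with any other group. The rise in cPLA_2_ KO (log2 fold change 0.54, SE 0.11, adjusted p = 0.000403) and the direction in cPLA_2_ WT (log2 fold change -0.26, SE 0.11, adjusted p = 0.0492) were opposite, and their difference was called (log2 0.80, SE 0.16, adjusted p = 0.000504). With the authors' size factors the fall in cPLA_2_ WT lay at the threshold, since without any 1 of the 6 cPLA_2_ WT libraries compared its adjusted p was between 0.0618 and 0.147, and it was lost with TMM (0.0769), edgeR (0.066), no filter (0.083), a pseudocount of 0.5 (0.0509) and a replicate term (0.0627), whereas with the same total the fall was larger (-0.48, adjusted p = 0.000457). After LPS it had between 639.6 and 913 with a median of 851 normalized counts, below each nonconfined library (log2 fold change -0.66, SE 0.078, adjusted p = 1.13e-07; -1.16 with the same total). Exons of *Tgfbr1*, *Tgfbr2* and *Tgif1* share 61, 443 and 851 bases with a long noncoding RNA gene on the opposite strand, and the strand setting used in counting is not given in the sources used here.

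Neither of the receptor-regulated SMAD genes was called by limma for confinement in cPLA_2_ WT cells, although over all genes a majority was. *Smad2* (GSMG0061481, chromosome 18 from 76374772 to 76444818, on the plus strand) had 1536, 1580.1 and 1557 normalized counts in nonconfined and 1658, 1561 and 1677 in confined cPLA_2_ WT libraries, which overlapped (log2 fold change 0.067, SE 0.054, adjusted p = 0.312). With the same total for each library this value was -0.16 (adjusted p = 0.00745), in the opposite direction. In cPLA_2_ KO cells it had 1451, 1392 and 1505 in nonconfined and 1648, 1556 and 1616 in confined libraries, without overlap (log2 fold change 0.15, SE 0.054, adjusted p = 0.0295). This small rise was lost with the same total (0.11, adjusted p = 0.062) and when nonconfined cPLA_2_ KO 1 or 2 or confined cPLA_2_ KO 1 or 3 was left out, with adjusted p-values up to 0.105. LPS libraries had between 2112 and 2378 with a median of 2126 normalized counts, higher than all others (log2 fold change 0.54, SE 0.038, adjusted p = 3.53e-11), but with the same total the change was 0.040 (adjusted p = 0.291). *Smad3* (GSMG0058915, chromosome 9 from 63554049 to 63665393, on the minus strand) was the less abundant of both, with 127, 129.6 and 143 normalized counts in nonconfined and 119, 90.0 and 90.0 in confined cPLA_2_ WT libraries, and 151, 155 and 148 and 150, 136 and 167 in cPLA_2_ KO libraries. The cPLA_2_ WT groups did not overlap, but the change was not called (log2 fold change -0.43, SE 0.20, adjusted p = 0.0738). With the same total (-0.65, adjusted p = 0.00671) or without the first confined cPLA_2_ WT library it was called (-0.56, adjusted p = 0.0365). Limma also called it with the compared conditions alone and without the LPS libraries. In confined cells *Smad3* was higher in cPLA_2_ KO than in cPLA_2_ WT libraries (log2 fold change 0.60, SE 0.20, adjusted p = 0.0201), a call lost without confined cPLA_2_ WT 2, confined cPLA_2_ WT 3 or confined cPLA_2_ KO 3, with adjusted p-values of 0.0743, 0.0738 and 0.0793. After LPS it had between 62.6 and 122 with a median of 96.2 normalized counts, lower than the nonconfined libraries (log2 fold change -0.63, SE 0.14, adjusted p = 0.000404; -1.13 with the same total).

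Among the inhibitors, *Skil* and *Tgif1* rose with confinement in both genotypes and by more in cPLA_2_ WT cells. *Skil* (GSMG0033755, chromosome 3 from 31149207 to 31177072, on the plus strand) encodes SnoN, which represses SMAD complexes and is itself a target of the pathway. It had 519.7, 486 and 493 normalized counts in nonconfined and 1793, 1775 and 1739 in confined cPLA_2_ WT libraries, against 417, 506 and 465 and 801, 805 and 746 in cPLA_2_ KO libraries. The confined groups were each above both nonconfined groups and did not overlap with each other. The rise was 3.54-fold in cPLA_2_ WT (log2 fold change 1.82, SE 0.070, adjusted p = 2.67e-15) and 1.70-fold in cPLA_2_ KO (log2 fold change 0.76, SE 0.070, adjusted p = 1.21e-08), and the change was smaller in cPLA_2_ KO (log2 -1.06, SE 0.099, adjusted p = 2.79e-08). LPS libraries had between 2909 and 3351 with a median of 3174 normalized counts, above every confined library (log2 fold change 2.71, SE 0.049, adjusted p = 1.26e-21 against nonconfined cells).

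*Tgif1* (GSMG0025249, chromosome 17 from 71151200 to 71160527, on the minus strand), a homeodomain corepressor of SMAD2 and SMAD3, had 2112, 2036 and 1986 normalized counts in nonconfined and 8233, 7969.6 and 8187 in confined cPLA_2_ WT libraries. In cPLA_2_ KO libraries it had 2608, 2472 and 2442 and 4575, 4174 and 4176. The rise was 3.98-fold in cPLA_2_ WT (log2 fold change 1.99, SE 0.050, adjusted p = 1.66e-18) and 1.72-fold in cPLA_2_ KO (log2 fold change 0.78, SE 0.050, adjusted p = 3.97e-11), and the changes differed (log2 -1.21, SE 0.070, adjusted p = 1.05e-11). After LPS it had between 7648 and 8686 with a median of 8206 normalized counts and overlapped with confined cPLA_2_ WT libraries (log2 difference -0.0069, SE 0.043, adjusted p = 0.906). With the same total for each library, confined cPLA_2_ WT cells were higher than LPS cells by 0.28 (adjusted p = 1.22e-06), so that the order of these levels depends on the scaling. In nonconfined cells *Tgif1* was already higher in cPLA_2_ KO than in cPLA_2_ WT libraries (log2 fold change 0.29, SE 0.050, adjusted p = 0.000745).

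*Smad7* (GSMG0026150, chromosome 18 from 75500433 to 75529005, on the plus strand), whose product blocks the type I receptor and which the pathway itself induces, had 448, 389.7 and 414 normalized counts in nonconfined and 607, 573 and 603 in confined cPLA_2_ WT libraries, without overlap (log2 fold change 0.51, SE 0.081, adjusted p = 1.33e-05; 0.29 with the same total). In cPLA_2_ KO libraries it had 560.2, 547 and 565 in nonconfined and 628, 532 and 519 in confined cells, which overlapped (log2 fold change 2e-04, SE 0.081, adjusted p = 1). The changes differed (log2 -0.51, SE 0.11, adjusted p = 0.00182; -0.32 with the same total), and the genotypes were called different before confinement (log2 fold change 0.42, SE 0.081, adjusted p = 0.00237), while after it they overlapped (log2 -0.091, SE 0.081, adjusted p = 0.41). LPS libraries had between 908 and 1046 with a median of 954 normalized counts, the highest of the 3 treatments (log2 fold change 0.99, SE 0.057, adjusted p = 8.69e-13; 0.49 with the same total).

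*Tgfbi* (GSMG0013469, chromosome 13 from 56757371 to 56787375, on the plus strand) encodes a secreted matrix protein first described as induced by TGFβ. It had 11174, 11144 and 10842 normalized counts in nonconfined and 26112, 25536 and 25753 in confined cPLA_2_ WT libraries. In cPLA_2_ KO libraries it had 10763, 10984 and 11066 and 28107, 25310.5 and 27019. Each confined library was thus above every nonconfined library, and the confined groups overlapped. The rise was 2.33-fold in cPLA_2_ WT (log2 fold change 1.22, SE 0.054, adjusted p = 2.63e-14) and 2.45-fold in cPLA_2_ KO (log2 fold change 1.29, SE 0.054, adjusted p = 3.99e-14). The difference between these changes was 0.069 (SE 0.076, adjusted p = 0.562), and with the same total it was 0.26 (adjusted p = 0.00341), a larger rise in cPLA_2_ KO. After LPS it had between 8642 and 10392 with a median of 9438 normalized counts, below each nonconfined library (log2 fold change -0.21, SE 0.038, adjusted p = 3.23e-05; -0.71 with the same total). *Tgfbi* was the member for which confined cells differed most from LPS cells in the direction of a higher level, in cPLA_2_ WT (log2 fold change 1.44, SE 0.046, adjusted p = 2.48e-16) as in cPLA_2_ KO (log2 fold change 1.5, SE 0.046, adjusted p = 2.68e-17).

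**Figure D2:**
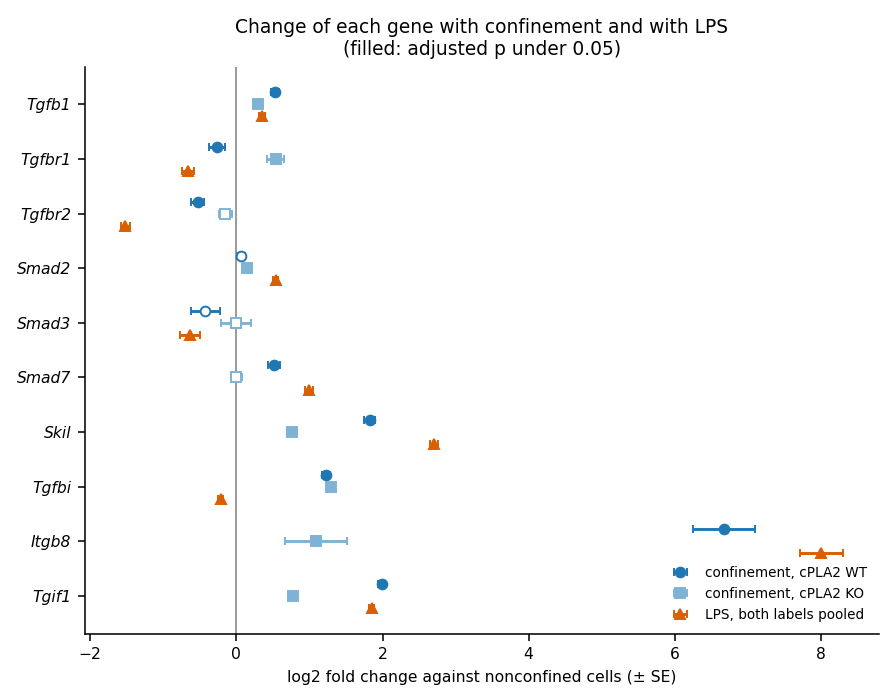
Log2 fold change against nonconfined cells (horizontal axis) with SE (bars) of the 10 genes for confinement in cPLA_2_ WT (circles), confinement in cPLA_2_ KO (squares) and LPS with both labels pooled (triangles), with filled symbols for an adjusted p under 0.05. For *Tgfbi* both confinement values lie near 1.22 and 1.29 while LPS lies at -0.21, for *Tgfbr1* the confinement values lie on opposite sides of 0, and the size for *Itgb8* depends on the pseudocount (with the same total for each library *Tgfb1* turns to -0.14 for LPS and *Smad2* to -0.16 for confinement in cPLA_2_ WT). Filled symbols of *Itgb8* are not a test, as the filter let it pass through its high groups.

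Between the genotypes in nonconfined cells, 2 of the 9 genes other than *Itgb8* were called, *Smad7* and *Tgif1*, both higher in cPLA_2_ KO, where 4.78% of all genes were called higher and 4.11% lower. Some alternatives also called *Tgfb1*, higher in cPLA_2_ KO (adjusted p down to 0.0323), or *Tgfbr1*, lower in cPLA_2_ KO (adjusted p down to 0.0213). In confined cells 5 of the 9 were called, with *Tgfbr1*, *Tgfbr2* and *Smad3* higher and *Skil* (log2 fold change -1.17, SE 0.070, adjusted p = 8.93e-12) and *Tgif1* (log2 fold change -0.92, SE 0.050, adjusted p = 1.7e-12) lower in cPLA_2_ KO. The same total called 5 higher, with *Smad2* (0.13) and *Tgfbi* (0.21) in place of no call, and 2 lower. Of all genes, 18.8% were called higher and 20.6% lower in confined cPLA_2_ KO cells. In LPS cells limma called 0% of all genes between the labels, and none of the 10. At an unadjusted p under 0.05 limma gave 890 of the 17875 genes, edgeR 812 and DESeq2 831, and edgeR and DESeq2 also called 0 after adjustment. Since the labels of these libraries go against the data, this count says nothing about the genotype.

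Confined and LPS cells were also set side by side. They differ in stimulus, in time (4 h against the next day) and in washing, which cannot be told apart here. Of the 9 genes, confined cPLA_2_ WT cells had 3 called higher than LPS cells, *Tgfbr1*, *Tgfbr2* and *Tgfbi*, and 3 called lower, *Smad2*, *Smad7* and *Skil*, and *Itgb8* was lower too, where 24.5% of all genes were called higher and 29.8% lower. *Tgfbr2* was 2.03-fold higher in confined cPLA_2_ WT than in LPS cells (log2 fold change 1.02, SE 0.076, adjusted p = 2.77e-10), and *Skil* had 0.564 times the LPS level (log2 fold change -0.83, SE 0.060, adjusted p = 1.94e-10; -0.54 with the same total). Under that scaling *Tgfbr1* went from 0.53 to 0.82, *Smad2* from -0.42 to -0.13 and *Smad7* from -0.69 to -0.40, and 6 of the 9 were called higher and 3 lower. Confined cPLA_2_ KO cells had 4 called higher, *Smad3* in addition, and 4 of the 9 called lower, *Tgif1* in addition, against 30.3% and 32.5% of all genes. Here the same total moved *Smad2* from -0.44 to 0.0034, *Smad3* from 0.72 to 1.16, *Smad7* from -0.78 to -0.34 and *Tgif1* from -0.92 to -0.48, with 5 called higher and 3 lower. *Tgfb1* was called in neither comparison (log2 0.10, SE 0.047, adjusted p = 0.079 in cPLA_2_ WT and log2 0.025, SE 0.047, adjusted p = 0.667 in cPLA_2_ KO). With TMM it was called in cPLA_2_ WT (log2 0.17, adjusted p = 0.00381), and with the same total it was higher in confined than in LPS cells by 0.39 and 0.47. In cPLA_2_ WT *Tgfb1* was called with edgeR and DESeq2 too, and without either of 2 single libraries, with adjusted p-values down to 0.0197. All comparisons with nonconfined or with LPS cells share those libraries, so that they do not stand for each other.

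To compare levels between genes, normalized counts were divided by the length of the merged exons in GENCODE. Per kilobase, *Tgfbi* had the highest level of the 10 genes in nonconfined cPLA_2_ WT cells, at 2927 normalized counts, followed by *Tgfb1* at 1883. *Tgif1*, *Tgfbr2* and *Tgfbr1* followed at 350, 293 and 209 normalized counts per kilobase. *Smad3*, at 23.0, was below *Smad2*, at 138. In confined cPLA_2_ WT cells *Tgif1* reached 1391 and *Skil* 175 normalized counts per kilobase, whereas *Itgb8*, at 12.4, remained the lowest of the 10. The αv chain gene *Itgav*, named here because its product is the partner of β8, was at 669.9 normalized counts per kilobase in the same cells.

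A list of 71 further genes of the pathway, in 5 groups by role, was examined in the same way, and 68 of them passed the filter. This list too was chosen with earlier results of these data known, so that its counts beside those of all genes are a description. *Fbn1*, *Snai1*, *Ltbp1*, *Tgfb2* and *Ccn2* averaged under 10 normalized counts in at least 1 condition, so that they passed through the others, and *Fbn1*, *Snai1* and *Ltbp1* did so in both nonconfined conditions. With confinement 37 of the 68 rose and 9 fell in cPLA_2_ WT cells, and 31 rose and 11 fell in cPLA_2_ KO cells. Of all genes, 28.2% and 28.4% were called higher and lower in cPLA_2_ WT and 22.8% and 23.4% in cPLA_2_ KO cells. Without these 5 genes, 35 of 63 rose and 7 fell in cPLA_2_ WT and 31 rose and 10 fell in cPLA_2_ KO cells. The counts of each group below stand against the same shares. The median log2 fold change over the 68 genes came to 0.31 for cPLA_2_ WT and 0.19 for cPLA_2_ KO cells, against -0.01 and 0.01 over all genes. With the same total for each library, 27 were called higher and 17 lower in cPLA_2_ WT cells, and 27 higher and 11 lower in cPLA_2_ KO cells. The change with confinement differed between genotypes for 27 genes, of which 4 were higher and 23 lower in cPLA_2_ KO, against 10.2% and 15.6% of all genes, while the same total gave 13 called higher and 15 lower. Without the 5 genes 4 were higher and 21 lower (13 and 13 with the same total). In cPLA_2_ WT cells the call for *Usp15* turned direction with the same total. With LPS 48 rose and 11 fell, against 37.2% and 34.3% of all genes, but with the same total 30 were called higher and 22 lower and 12 of these 59 turned direction. Without the 5 genes 46 rose and 11 fell with LPS.

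Among genes of ligands and of latent TGFβ activation, *Thbs1*, *Lrrc32* and *Itgav* rose in both genotypes. Of 18 tested, 10 rose and 5 fell in cPLA_2_ WT, 7 rose and 5 fell in cPLA_2_ KO cells (8 and 8, and 6 and 5, with the same total), with a median log2 fold change of 0.38 and 0.09, and 8 changed differently between genotypes, each lower in cPLA_2_ KO (with the same total 1 was called higher and 6 lower). The 18 include *Fbn1*, *Ltbp1* and *Tgfb2*, without which 9 of 15 rose and 3 fell in cPLA_2_ WT and 7 rose and 4 fell in cPLA_2_ KO cells. The 8 called for the difference were counted among all 18. A call of *Fbn1*, *Ltbp1* or *Tgfb2* among them is not a test, as these genes passed the filter through other conditions. *Thbs1* encodes thrombospondin 1, a matrix protein that can activate latent TGFβ. It had 19293, 18335 and 18589.5 normalized counts in nonconfined and 166468, 163722 and 165873 in confined cPLA_2_ WT libraries, against 19158, 24040.2 and 21326 and 58428, 54508 and 57449 in cPLA_2_ KO libraries. The groups were far apart, at 8.82-fold in cPLA_2_ WT (log2 fold change 3.14, SE 0.097, adjusted p = 6.48e-17) and 2.65-fold in cPLA_2_ KO (log2 fold change 1.41, SE 0.097, adjusted p = 1.44e-10), with a difference between the changes of -1.74 (SE 0.14, adjusted p = 1.94e-09). *Lrrc32* encodes GARP, which holds latent TGFβ at the cell surface. It had 292, 258 and 326 normalized counts in nonconfined and 2351, 2234 and 2279 in confined cPLA_2_ WT libraries, against 176, 210.4 and 194 and 704, 550.2 and 581 in cPLA_2_ KO libraries, and LPS libraries had between 4304 and 8048 with a median of 6061. It rose in both genotypes (log2 fold change 2.97, SE 0.18, adjusted p = 7.3e-12 in cPLA_2_ WT and log2 fold change 1.65, SE 0.18, adjusted p = 1.81e-07 in cPLA_2_ KO).

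*Itgav* had 2164, 2147 and 2144 normalized counts in nonconfined and 7834, 8541 and 8414 in confined cPLA_2_ WT libraries, against 2123, 2251 and 2162 and 3242, 3227 and 3175 in cPLA_2_ KO libraries. Like *Itgb8* it was highest in LPS and confined cPLA_2_ WT cells, but unlike *Itgb8* it was present in each library. It rose 3.84-fold in cPLA_2_ WT and 1.48-fold in cPLA_2_ KO cells, a difference of -1.38 (log2, SE 0.063, adjusted p = 1.61e-13). With LPS, *Lrrc32* (log2 fold change 4.65, SE 0.13, adjusted p = 1.89e-18) and the membrane protease gene *Mmp14* (log2 fold change 3.14, SE 0.044, adjusted p = 1.38e-23) rose most among the genes of this group averaging 100 normalized counts or more. The integrin gene *Itgb5* fell (log2 fold change -1.17, SE 0.076, adjusted p = 7.82e-12). With confinement *Mmp9*, a secreted protease gene, fell (log2 fold change -1.27, SE 0.26, adjusted p = 0.000258 in cPLA_2_ WT and log2 fold change -0.70, SE 0.26, adjusted p = 0.0307 in cPLA_2_ KO). The call in cPLA_2_ KO was lost with DESeq2 (adjusted p = 0.0511), without a filter (0.0569) and when any of the 6 libraries other than confined cPLA_2_ KO 1 was left out, with adjusted p-values up to 0.0956. *Mmp9* is also a product of neutrophils, which according to the Methods are lost during differentiation as they do not adhere. Their genes were present and moved as given above, and their part in this was not tested. A fall was also seen for *Nrros*, which encodes a GARP relative of myeloid cells (log2 fold change -0.23, SE 0.041, adjusted p = 4.06e-05 in cPLA_2_ WT, -0.46 with the same total, and log2 fold change -0.46, SE 0.041, adjusted p = 7.53e-09 in cPLA_2_ KO). With LPS *Nrros* was higher (log2 fold change 0.24, SE 0.029, adjusted p = 1.68e-07), but with the same total this was -0.26 (adjusted p = 9.66e-08).

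**Figure D3:**
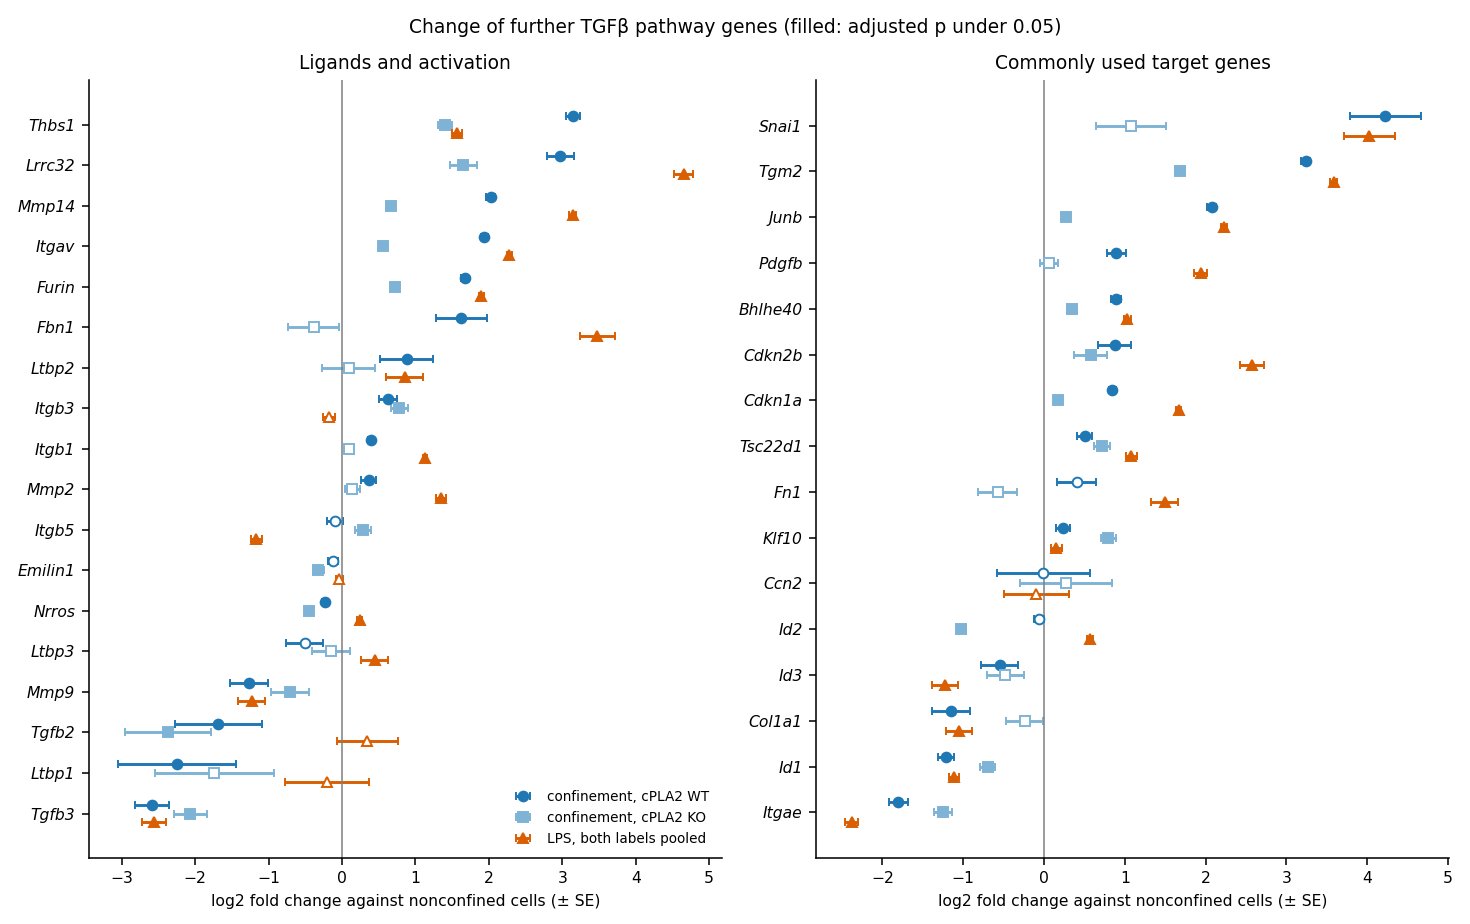
Log2 fold change against nonconfined cells (horizontal axes) with SE (bars) of the 18 genes tested of ligands and activation (left) and the 16 commonly used target genes (right), ordered by the change in confined cPLA_2_ WT cells, with symbols as for the 10 genes. For *Thbs1*, *Lrrc32* and *Itgav* confinement in cPLA_2_ WT lies to the right of confinement in cPLA_2_ KO, and for *Itgae* all 3 values lie below 0, while with the same total for each library the LPS values of *Nrros*, *Ltbp3* and *Klf10* change sign. *Fbn1*, *Ltbp1*, *Tgfb2*, *Snai1* and *Ccn2* were low in a condition and passed the filter through others, so their filled symbols are not a test.

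Of 10 further receptor genes 5 rose and none fell in cPLA_2_ WT by the limma test, and 4 rose and 1 fell in cPLA_2_ KO cells (median log2 fold change 0.31 and 0.18), but with the same total 2 were called higher and 1 lower in cPLA_2_ WT cells. *Acvr1b*, which encodes an activin type I receptor, went from a mean of 895 ± 20.2 normalized counts (SD, n = 3) before to 1958 ± 33.3 after confinement of cPLA_2_ WT cells (SD, n = 3) (log2 fold change 1.13, SE 0.074, adjusted p = 2.28e-11). In cPLA_2_ KO cells its value was 0.14 (log2, SE 0.074, adjusted p = 0.134; without nonconfined cPLA_2_ KO 2, 0.24 with adjusted p = 0.00683; without nonconfined cPLA_2_ KO 1, 0.053 with adjusted p = 0.591), and it was the single gene of these 10 whose change differed between genotypes (log2 -0.99, SE 0.10, adjusted p = 1.82e-07). *Acvrl1* rose in both genotypes (log2 fold change 1.05, SE 0.14, adjusted p = 9.78e-07 in cPLA_2_ WT and log2 fold change 0.74, SE 0.14, adjusted p = 0.000145 in cPLA_2_ KO). *Acvr2a* rose in cPLA_2_ KO (log2 fold change 0.78, SE 0.19, adjusted p = 0.00195) and *Eng* fell there (log2 fold change -0.46, SE 0.13, adjusted p = 0.0067). With LPS 7 rose and 1 fell (4 and 4 with the same total), led by the type II receptor genes *Acvr2a* (log2 fold change 1.21, SE 0.13, adjusted p = 4.77e-08; 0.72 with the same total) and *Bmpr2* (log2 fold change 1.07, SE 0.072, adjusted p = 1.29e-11; 0.57 with the same total).

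Of 13 further SMAD and transducer genes 5 rose and none fell in cPLA_2_ WT by the limma test, and 5 rose and 2 fell in cPLA_2_ KO cells (median log2 fold change 0.22 and 0.20), but with the same total 3 were called higher and 2 lower in either genotype. *Smad4*, the common partner of the receptor-regulated SMADs, went from a mean of 717 ± 22.7 normalized counts (SD, n = 3) before to 1025 ± 10.8 after confinement of cPLA_2_ WT cells (SD, n = 3) (log2 fold change 0.52, SE 0.075, adjusted p = 4.86e-06; 0.29 with the same total). The ubiquitin ligase gene *Rnf111* rose in cPLA_2_ WT as well (log2 fold change 0.47, SE 0.084, adjusted p = 6.89e-05; 0.24 with the same total). In cPLA_2_ KO cells the coactivator gene *Crebbp* (log2 fold change 0.64, SE 0.12, adjusted p = 0.000254) and the kinase gene *Map3k7* (log2 fold change 0.23, SE 0.067, adjusted p = 0.00741) rose. *Smad1*, which serves bone morphogenetic protein signals (log2 fold change -0.56, SE 0.098, adjusted p = 7.64e-05), and *Tab2* (log2 fold change -0.10, SE 0.039, adjusted p = 0.0355) fell. In cPLA_2_ WT cells *Map3k7* was higher after confinement as well, without overlap, with means of 1169 in nonconfined and 1450 in confined libraries. *Rnf111* was higher after confinement in cPLA_2_ KO too, without overlap, with means of 623 and 729. In cPLA_2_ WT the means went from 1384 to 1701 for *Crebbp* and from 454 to 397 for *Smad1*, with overlap. Of the 13 genes, 2 were called for a difference between genotypes in their change. These were *Tab2* (log2 -0.42, adjusted p = 4.41e-06; -0.23 with the same total) and *Smad4* (log2 -0.30, adjusted p = 0.0398). The call for *Smad4* was lost with the same total (-0.12, adjusted p = 0.409), without a filter (0.0607) and when any library other than nonconfined cPLA_2_ WT 1, nonconfined cPLA_2_ KO 1 or confined cPLA_2_ KO 1 was left out, with adjusted p-values up to 0.131. The calls in cPLA_2_ KO for *Tab2* (adjusted p = 0.062 without a filter, 0.0738 with the compared conditions alone, and up to 0.134 without nonconfined cPLA_2_ KO 2 or 3 or confined cPLA_2_ KO 2 or 3) and *Map3k7* (adjusted p = 0.067 without nonconfined cPLA_2_ KO 1) were lost as well. With LPS 10 rose and 2 fell, but with the same total 3 were called higher and 4 lower, and *Smad5*, *Ep300*, *Map3k7*, *Rnf111*, *Usp4* and *Usp15* turned direction. Of the genes named by size, this comparison had *Tab2* (log2 fold change 0.81, SE 0.028, adjusted p = 7.76e-17; 0.32 with the same total) and *Smad4* (log2 fold change 0.68, SE 0.053, adjusted p = 1.57e-10; 0.19 with the same total) rising and *Tab1* falling (log2 fold change -0.53, SE 0.090, adjusted p = 2e-05; -1.02 with the same total).

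Of 11 further inhibitor genes 8 rose and none fell by the limma test in either genotype (median log2 fold change 0.40 in cPLA_2_ WT and 0.37 in cPLA_2_ KO), and with the same total 6 were called higher and 1 lower in cPLA_2_ WT cells. *Pmepa1*, a target that removes receptor-regulated SMADs from signalling, had 33.5, 34.1 and 36.4 normalized counts in nonconfined and 599, 588 and 683 in confined cPLA_2_ WT libraries, against 32.1, 21.4 and 20.4 and 295, 308 and 277 in cPLA_2_ KO libraries. It rose strongly in both genotypes (log2 fold change 4.13, SE 0.15, adjusted p = 9.03e-16 in cPLA_2_ WT and log2 fold change 3.55, SE 0.15, adjusted p = 4.62e-14 in cPLA_2_ KO). The difference (log2 -0.58, SE 0.21, adjusted p = 0.047) lay at the threshold, since it was lost with the same total (-0.39, adjusted p = 0.157), with a pseudocount of 0.5 (0.0522), without a filter (0.0667), with DESeq2 (0.051), with the compared conditions alone (0.0803), without the LPS libraries (0.0803), with a replicate term (0.0638) and by the 1.5-fold threshold of the Methods. It was also lost when any library other than nonconfined cPLA_2_ KO 2 or 3 was left out, with adjusted p-values up to 0.133 and, without nonconfined cPLA_2_ KO 1, a value of -0.38. *Ldlrad4*, a relative of *Pmepa1*, rose as well (log2 fold change 1.89, SE 0.21, adjusted p = 9.19e-08 in cPLA_2_ WT and log2 fold change 1.77, SE 0.21, adjusted p = 4.5e-07 in cPLA_2_ KO). *Fkbp1a*, whose product binds the type I receptor, rose less in cPLA_2_ KO than in cPLA_2_ WT cells (log2 -0.33, SE 0.067, adjusted p = 0.000842), but with the same total this was -0.14 (adjusted p = 0.0816). With LPS 9 rose and 1 fell (6 and 3 with the same total), with *Pmepa1* (log2 fold change 3.35, SE 0.10, adjusted p = 1.83e-17) and *Ldlrad4* (log2 fold change 1.83, SE 0.15, adjusted p = 2.7e-10) rising and *Ski*, a relative of *Skil*, falling (log2 fold change -0.22, SE 0.037, adjusted p = 1.32e-05; -0.72 with the same total).

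The 16 commonly used target genes did not move one way. In cPLA_2_ WT cells 9 rose and 4 fell with confinement, and in cPLA_2_ KO cells 7 rose and 3 fell (median log2 fold change 0.45 and 0.22). Without *Snai1* and *Ccn2*, 8 of 14 rose and 4 fell in cPLA_2_ WT and 7 rose and 3 fell in cPLA_2_ KO cells. *Tgm2*, a transglutaminase gene, had 3043, 2739 and 3104 normalized counts in nonconfined and 29209, 27083 and 27480.4 in confined cPLA_2_ WT libraries, against 3846, 3815 and 3726 and 13067, 11589 and 11924 in cPLA_2_ KO libraries (log2 fold change 3.24, SE 0.059, adjusted p = 7.67e-21 in cPLA_2_ WT and log2 fold change 1.68, SE 0.059, adjusted p = 2.72e-15 in cPLA_2_ KO). The groups did not overlap, and the change was smaller in cPLA_2_ KO (log2 -1.56, SE 0.083, adjusted p = 2.72e-12). *Junb*, an AP-1 subunit gene, rose in cPLA_2_ WT (log2 fold change 2.08, SE 0.054, adjusted p = 3.27e-18) and its change differed between genotypes (log2 -1.81, SE 0.076, adjusted p = 4.29e-14).

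Other genes of this list fell. *Itgae*, the αE integrin gene that TGFβ induces in T cells, had 2126, 2121 and 2148 normalized counts in nonconfined and 644, 587 and 603 in confined cPLA_2_ WT libraries, against 2493, 3044 and 2732 and 1226, 1066 and 1175 in cPLA_2_ KO libraries. It fell in both genotypes (log2 fold change -1.80, SE 0.11, adjusted p = 1.38e-11 in cPLA_2_ WT and log2 fold change -1.25, SE 0.11, adjusted p = 1.15e-08 in cPLA_2_ KO) and by more in cPLA_2_ WT (log2 0.55, SE 0.16, adjusted p = 0.0146). *Id1*, a target of bone morphogenetic proteins as well as TGFβ, fell in cPLA_2_ WT (log2 fold change -1.21, SE 0.096, adjusted p = 5.25e-10), and *Id2* fell in cPLA_2_ KO (log2 fold change -1.02, SE 0.058, adjusted p = 6.49e-12). *Id1* was lower after confinement in cPLA_2_ KO too, without overlap, with 2529, 2072 and 2520 normalized counts in nonconfined and 1477, 1414 and 1478 in confined libraries. *Klf10*, an early response gene, rose in cPLA_2_ KO (log2 fold change 0.80, SE 0.091, adjusted p = 3.3e-07) by more than in cPLA_2_ WT cells (log2 0.56, SE 0.13, adjusted p = 0.00238). With LPS 11 rose and 4 fell, and without *Snai1* and *Ccn2* these were 10 and 4 (all 16 with the same total, 9 and 5). Of those averaging 100 normalized counts or more, *Tgm2*, whose counts lay between 37574 and 43559 with a median of 39547, and the cell cycle inhibitor gene *Cdkn2b* (log2 fold change 2.58, SE 0.15, adjusted p = 7.63e-13) rose most. Of the same genes *Itgae* (log2 fold change -2.38, SE 0.081, adjusted p = 7.46e-17) and *Id3* (log2 fold change -1.23, SE 0.16, adjusted p = 7.92e-07) fell most.

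As a description, each gene was set beside the 10553 other genes with a symbol and a mean of at least 100 normalized counts, by Pearson correlation of log2 values over the 18 libraries, which fall into 6 conditions and share their scaling. *Skil* was most like *Acod1* (r = 0.998), *St3gal1* (0.998) and *Ehd1* (0.998). *Tgif1* was most like *Ankrd33b* (0.997), *B230303A05Rik* (0.996) and *Kdm6b* (0.996), and *Itgb8* was most like *Nos2* (0.993), *Rnf19b* (0.993) and *Dennd5a* (0.992). *Tgfbi* was most like *Ankrd28* (0.990), *C77080* (0.985) and *Rhov* (0.984), and *Tgfbr2* was most like *Mvb12b* (0.987), *Fads1* (0.987) and *Bcl2* (0.986). For *Tgfb1* these were *Agpat4* (0.967), *Tpd52* (0.958) and *Ykt6* (0.957), for *Tgfbr1* *Fblim1* (0.955), *Psap* (0.954) and *Fcho2* (0.948), and for *Smad2* *Prkcd* (0.982), *Vcp* (0.981) and *Tmem120b* (0.979). *Smad7* was most like an entry that joins *Fpr2* and *Fpr3* (0.973), *Tmbim6* (0.969) and *Rftn1* (0.968). *Smad3* was most like *Sirpb1b* (0.896), *Acad10* (0.889) and *Pick1* (0.885).

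Promoter sequences of 7 of the 10 genes were read from RefSeq (assembly GRCm38.p6), from 250 bases before to 50 bases after the annotated start, with 5 starts for *Tgif1*, 2 for *Tgfbr1* and 12 in all. They were searched on both strands for CAGAC, the letters SMAD proteins are known to bind, for TGANTCA, the core of AP-1 sites, and for the NF-κB consensus. CAGAC was found in 7 of the 12 promoters and in 49.6% of all 32851 promoters of the same length. TGANTCA was found in none of the 12 and in 7.81% of all, and the NF-κB consensus in none of the 12 and in 4.51% of all. No matches of different motifs overlapped, since CAGAC alone was found in the 12. The promoters of *Itgb8*, *Tgfbi* and *Tgfbr2* are shown because these genes stand for a change with confinement seen in cPLA_2_ WT cells, a rise in both genotypes and a fall. They lie at chr12:119238227-119238526 (minus strand), chr13:56609336-56609635 (plus strand) and chr9:116175314-116175613 (minus strand) of GRCm38.p6 and are written 5′ to 3′ with CAGAC, or GTCTG where it lies on the opposite strand, in capitals.
Itgb8: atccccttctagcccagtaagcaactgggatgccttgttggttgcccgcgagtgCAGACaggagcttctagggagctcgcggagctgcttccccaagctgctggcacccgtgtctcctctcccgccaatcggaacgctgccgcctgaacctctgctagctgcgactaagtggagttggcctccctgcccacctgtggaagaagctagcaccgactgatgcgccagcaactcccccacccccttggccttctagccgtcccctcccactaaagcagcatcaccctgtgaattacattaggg
Tgfbi: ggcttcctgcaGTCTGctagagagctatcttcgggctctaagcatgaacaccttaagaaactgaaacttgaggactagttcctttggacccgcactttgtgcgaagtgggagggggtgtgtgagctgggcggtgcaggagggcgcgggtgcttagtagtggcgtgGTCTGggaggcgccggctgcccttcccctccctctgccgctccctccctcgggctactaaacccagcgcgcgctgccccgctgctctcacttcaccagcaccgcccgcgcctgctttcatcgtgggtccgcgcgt
Tgfbr2: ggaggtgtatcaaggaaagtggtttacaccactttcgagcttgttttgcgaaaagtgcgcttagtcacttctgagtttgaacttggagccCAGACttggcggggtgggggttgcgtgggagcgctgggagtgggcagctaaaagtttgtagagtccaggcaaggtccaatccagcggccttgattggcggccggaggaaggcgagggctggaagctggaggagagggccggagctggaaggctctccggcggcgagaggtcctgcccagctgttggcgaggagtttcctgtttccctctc
The single match of *Itgb8* begins at position -196 from the start and that of *Tgfbr2* at -160, and those of *Tgfbi* begin at -239 and -85. A match describes these letters and shows neither binding nor a cause of the changes, and no match says only that the letters are not in this window.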

How the data were processed

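Normalized counts were deposited as a signal table of gene values. According to the Methods, the labels and the table itself, the authors prepared polyadenylated, strand-specific libraries with 2 kits (which library had which is not given in the sources used here), mapped reads with STAR 2.7.5a to mm39, counted them with featureCounts 1.5.0 on the FAST DB annotation and divided the counts by DESeq2 size factors. Dividing each library's values by its smallest value above 0 gave whole reads for 100% of values (tolerance 1e-06). Conditions came from the sample titles. The 10 genes and all gene lists were chosen with earlier results of these data known.

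log2(normalized count + 1) was fitted with limma 3.58.1 in R 4.3.3 (a mean per condition, with a trend in eBayes), with Benjamini-Hochberg adjustment over 17875 genes in each of 9 comparisons. In the 5 pathway lists, the genes named are the up to 2 called with the largest rise and up to 2 with the largest fall per list, for confinement in each genotype, the difference and LPS, averaging 100 normalized counts or more and, except for the difference, no overlap of libraries. *Usp15*, *Ltbp3*, the pathway genes low in a condition or turned by the same total, the values of *Nrros* with LPS and of *Acvr1b* in cPLA_2_ KO cells, and the marker genes given by name were chosen after their values were seen. So were *Tgfb3*, the values of *Lrrc32* by LPS label, and those of *Rnf111*, *Crebbp* and *Smad1* in the genotype in which the rule did not name them. Alternatives used a pseudocount of 0.5 or of 5, a filter of 100 or none, the same total, TMM, edgeR 4.0.16 and DESeq2 1.42.0 on recovered reads, compared conditions alone, a replicate term, the thresholds of the Methods (1.5-fold and a p of 0.05, taken as unadjusted), each library left out, and, chosen after seeing the data, a fit without the 6 LPS libraries and counts without *Itgb8* or without pathway genes averaging under 10 in a condition. Scripts were tested on simulated data. Gene structures are from GENCODE vM39, whose positions overlap those of the table for all 10 genes, and figures were drawn with matplotlib 3.10.9. Of the 10 members, *Itgb8*, with 0 to 3 reads in each nonconfined and confined cPLA_2_ KO library, and *Smad3*, with 59 to 193 reads in each library, rest on the fewest reads. A further gene of the target list is not reported here, and the numbers of genes given for the pathway lists leave it out.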

Additional observations from a re-analysis of the deposited data

Results flagged for a closer look

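The change with confinement differed between the genotypes, by the limma test of the difference itself, for 6 of the 9 genes other than *Itgb8*, 2 higher and 4 lower, against 10.2% and 15.6% of all genes. On the log2 scale, cPLA_2_ KO minus cPLA_2_ WT, the difference was -0.23 for *Tgfb1*, 0.80 for *Tgfbr1*, 0.38 for *Tgfbr2*, -0.51 for *Smad7*, -1.06 for *Skil* and -1.21 for *Tgif1*. The calls for *Tgfb1* and *Tgfbr2* were lost without some single libraries, and that for *Tgfb1* also with the same total for each library (-0.045, adjusted p = 0.627), which called 4 of the 9 higher and 3 lower. *Itgb8*, which passed the filter only through its high groups, had a fitted value of -5.59 whose size depends on the pseudocount.

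Among the named genes of the pathway lists the same test gave -1.74 for *Thbs1*, -1.38 for *Itgav*, -0.99 for *Acvr1b*, -0.42 for *Tab2*, -0.30 for *Smad4*, -0.58 for *Pmepa1*, -0.33 for *Fkbp1a*, 0.56 for *Klf10*, 0.55 for *Itgae*, -1.56 for *Tgm2* and -1.81 for *Junb*. The calls for *Smad4*, *Pmepa1* and *Fkbp1a* were lost with the same total for each library.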

How the results depend on the processing

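The number called of the 9 genes other than *Itgb8* stayed within 1.5 times the value given under the alternatives to scaling, filter, pseudocount, test, fit and replicate term, and when single libraries were left out. By the thresholds of the Methods, 1.5-fold with a p of 0.05 that was taken here as unadjusted, it went from 7 to 3 for confinement in cPLA_2_ WT, from 6 to 3 in cPLA_2_ KO, from 6 to 3 for the difference (4 in each of these if *Itgb8*, which passed the filter only through its high groups, is counted), and for cPLA_2_ KO against cPLA_2_ WT from 2 to 0 in nonconfined and from 5 to 3 in confined cells. A figure legend of the study names a false discovery rate and a larger fold change instead. Of the alternatives run for single values of the 10 genes, 1493 kept direction and side of the threshold, 68 lost a call, 19 gained one and 30 reversed, and for the other named genes these numbers were 1248, 62, 1 and 1.

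With the same total for each library, values reversed to -0.16 for *Smad2* with confinement in cPLA_2_ WT, -0.036 for *Smad7* in cPLA_2_ KO, 0 for *Itgb8* in nonconfined cPLA_2_ KO against cPLA_2_ WT, and 0.080 for *Tgfb1*, 0.13 for *Smad2* and 0.064 for *Smad7* in confined cPLA_2_ KO against cPLA_2_ WT. They also reversed to -0.14 for *Tgfb1* and -0.26 for *Nrros* with LPS, 0.28 for *Tgif1* in confined cPLA_2_ WT against LPS and 0.0034 for *Smad2* in confined cPLA_2_ KO against LPS. *Smad7* with confinement in cPLA_2_ KO reversed to -0.0091 with TMM, -0.0053 with edgeR and -2e-04 with DESeq2, and *Tgif1* in confined cPLA_2_ WT against LPS to 0.065, 0.064 and 0.030. The cause was not tested.

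When single libraries were left out, values crossed 0 for *Itgb8* (-0.45 to 0.45) and *Tgfbr2* (-0.18 to 0.073) in nonconfined cPLA_2_ KO against cPLA_2_ WT, *Smad3* (-0.078 to 0.066) and *Smad7* (-0.086 to 0.052) with confinement in cPLA_2_ KO, *Smad2* (-0.054 to 4e-04) in confined cPLA_2_ KO against cPLA_2_ WT, *Tgif1* (-0.022 to 0.014) and *Smad3* (-0.017 to 0.21) in confined cPLA_2_ WT against LPS, and *Tgfb1* (-0.0076 to 0.059) in confined cPLA_2_ KO against LPS, none of which limma called with all libraries. The lone pair of libraries left in a group is taken to vary like the other groups. Replicate numbers were not taken to pair libraries, since in no comparison were all residual correlations of libraries with the same number above 0.1. For confined cPLA_2_ KO against cPLA_2_ WT they lay between 0.04 and 0.338, and this rule cannot exclude a pairing. With a term for replicate numbers the call lost among the 10 genes was *Tgfbr1* with confinement in cPLA_2_ WT (adjusted p = 0.0627).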
